A study of Mus musculus with 6 samples.

Results

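The genes described here encode the machinery that brings secretory proteins into the endoplasmic reticulum (ER) and ships them out of it. The set lists 42 genes in 5 steps, namely the signal recognition particle and its receptor, the translocon, signal peptidase, the COPII coat, and cargo receptors with retrieval receptors. The genes were chosen by name and function, with earlier results of these data known. Each is represented by a probe set that the array's annotation pairs with that gene alone. Where a gene has several, the one of highest mean over the 6 arrays was used. Of the 42 genes, 38 reached a signal of 100 on at least 1 array and entered the test, among 10633 probe sets tested in all. Total RNA from the livers of 3 LERKO and 3 CT females was hybridised to Affymetrix Mouse Gene 1.1 ST arrays, 1 for each animal, and the labels call the samples biological replicates. LERKO mice are Alb-cre/ERα fl/fl animals, in which cre recombinase under the albumin promoter deletes the estrogen receptor ERα in hepatocytes, and CT mice are ERα fl/fl animals without the transgene. All mice were of C57BL/6J background, and effects of cre itself and of the deletion cannot be told apart in this comparison. Cells of the liver in which the albumin promoter is silent keep their ERα. The methods state free access to food for the animals in general, and neither the age of these 6 animals nor their feeding state at collection is given in the sources used here.

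A protein bound for secretion is recognised by its signal sequence as it leaves the ribosome, and the signal recognition particle carries the ribosome to its receptor on the ER. The chain then passes through the Sec61 channel, signal peptidase removes the signal sequence, and the folded protein leaves in vesicles coated by COPII, while resident ER proteins that escape are returned by retrieval receptors. Hepatocytes make most plasma proteins, and the very low density lipoprotein of the liver, through this route. Several of its genes are known targets of XBP1 and ATF6, transcription factors of the unfolded protein response, which bind the elements ERSE and UPRE.

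Promoter sequence from RefSeq (build GRCm38.p6) was at hand for 32 of the 42 genes, in windows that run from 250 bases before to 50 bases after the start of the transcript. There was no entry for Srp19, Srp68, Sec61a1, Ssr2, Tram1, Spcs3, Sec11c, Lman1, Tmed2 and Kdelr2. Both strands were searched. The full ERSE, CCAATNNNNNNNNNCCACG, was found in 0 of the 32 genes and in 0.119% of all 32851 promoter windows, and ERSE-II, which is ATTGG and CCACG with 1 base between them, in 0 of 32 and in 0.0365%. The UPRE core TGACGTGG was found in 3 genes, Sec23a, Sec24d and Kdelr3, which is 9.38% of the 32, beside 0.676% of all windows. The 5 letters CCACG, shared by ERSE and, on the other strand, by the UPRE core, were found in 22 of the 32 genes (68.8%) and in 32.8% of all windows. A gene with several windows counts once if any of them holds the letters, whereas the share of all windows counts each window singly. The share of genes can therefore be higher than a share counted by window. These matches describe the sequence and are not binding sites.

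The next 4 lines show the 250 bases before the start for the 4 genes with a promoter entry among the 7 with an unadjusted p under 0.05 between LERKO and CT liver, described in turn after the sequences. Capitals mark CCACG on either strand. Srpr holds 3 matches, Ssr3 and Spcs2 hold 1 each, and Sec61g holds none.
Sec61g, chr11:16508485-16508734, minus strand: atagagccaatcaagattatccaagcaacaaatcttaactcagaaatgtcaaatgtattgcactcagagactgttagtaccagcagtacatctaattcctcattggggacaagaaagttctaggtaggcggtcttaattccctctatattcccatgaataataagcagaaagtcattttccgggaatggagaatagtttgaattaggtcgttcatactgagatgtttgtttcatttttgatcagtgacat
Spcs2, chr7:99858884-99859133, minus strand: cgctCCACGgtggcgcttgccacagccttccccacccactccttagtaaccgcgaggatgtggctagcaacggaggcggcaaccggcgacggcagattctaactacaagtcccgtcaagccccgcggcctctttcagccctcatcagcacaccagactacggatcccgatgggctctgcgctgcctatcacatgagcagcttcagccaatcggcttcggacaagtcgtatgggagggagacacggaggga
Ssr3, chr3:65392554-65392803, minus strand: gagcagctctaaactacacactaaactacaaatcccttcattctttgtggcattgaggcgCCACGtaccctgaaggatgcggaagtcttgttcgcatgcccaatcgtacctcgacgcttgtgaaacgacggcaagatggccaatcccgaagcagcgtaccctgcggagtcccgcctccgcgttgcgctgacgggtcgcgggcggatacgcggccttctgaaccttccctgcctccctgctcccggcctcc
Srpr, chr9:35210953-35211202, plus strand: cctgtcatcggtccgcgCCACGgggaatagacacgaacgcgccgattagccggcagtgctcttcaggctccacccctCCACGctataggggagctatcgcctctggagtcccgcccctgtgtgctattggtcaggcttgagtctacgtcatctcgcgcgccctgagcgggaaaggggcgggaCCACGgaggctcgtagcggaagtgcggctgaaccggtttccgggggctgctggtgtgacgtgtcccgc
The 3 stretches of 30 bases that follow hold the UPRE core in capitals, and Kdelr3 has it on the opposite strand, so that its complement is read. The core lies at bases 7 to 14 after the start in Sec23a, at −26 to −19 in Sec24d and at −30 to −23 in Kdelr3.
Sec23a, chr12:59011993-59012022, minus strand: ctcctccccttTGACGTGGcagaggcggca
Sec24d, chr3:123267459-123267488, plus strand: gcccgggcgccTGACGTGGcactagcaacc
Kdelr3, chr15:79516367-79516396, plus strand: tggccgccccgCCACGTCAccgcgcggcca

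The values are log2 signals from robust multichip averaging (RMA), in which 1 unit is a doubling, and a log2 fold change is LERKO minus CT. Esr1, which encodes ERα, had log2 signals of 6.75, 7.06 and 6.77 in LERKO liver, against 8.45, 8.78 and 8.29 in CT liver. Its groups did not overlap, with a log2 fold change of −1.65 (SE 0.15, limma adjusted p = 0.149); where its probes lie relative to the deleted part of the gene is not given in the sources used here. Each array had 9452 to 9865 probe sets at a signal of 100 or more, and all 9 hepatocyte marker genes measured did so on every array, with summed signals of 76579 to 79306 in LERKO and 76369 to 82149 in CT. On 2 arrays, genes of other organs were high. LERKO replicate 2 had 5 of 6 adrenal cortex genes at a signal of 100 or more (summed signal 7139, against 61 to 81 on the other arrays), and CT replicate 3 had 4 of 8 pancreatic acinar genes at that level (1965, against 117 to 133). CT replicate 3 also had 3 of 6 skeletal muscle genes and 2 of 5 squamous epithelium genes at 100 or more, where the other arrays had none. Of the 5 plasma cell markers measured, Sdc1, which hepatocytes also express, was the only one at 100 on any array and made up nearly all of the summed signal of 1544 to 1653 in LERKO and 1530 to 2213 in CT, while Jchain, Mzb1, Tnfrsf17 and Ighm stayed below 100 on all arrays. Summed marker signals overlapped between the groups for Kupffer cells (2532 to 2903 in LERKO, 1860 to 3057 in CT), endothelium (2599 to 2959 in LERKO, 2585 to 3289 in CT) and stellate cells (3610 to 4309 in LERKO, 3396 to 4821 in CT). Within the stellate list, Col1a1 and Col3a1, below 100 on all arrays, were lower in every LERKO than in every CT mouse (log2 differences of −0.33 and −0.36). The cholangiocyte sum was 152 to 162 in LERKO, against 174 to 220 in CT, without overlap. Of its 5 genes only Sox9 reached 100, on 2 CT arrays (log2 fold change −0.41, limma unadjusted p = 0.0587), and Krt19, Krt7, Epcam and Cftr lay below it everywhere. The part of these cell types in the results that follow was not tested. Since the tissue was measured in bulk, fewer cells of a type and less RNA per cell cannot be told apart.

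Across the whole set, most genes had lower signals in LERKO than in CT liver, by small amounts, and none passed the test. At an adjusted p under 0.05 (limma, Benjamini-Hochberg over all probe sets), 0 of 38 genes and 0 of 10633 probe sets (0%) differed. This count depends on how the signal filter of the methods is read: where 100 was required on all 6 arrays, 3 of 8849 probe sets passed, none of them for a gene of the set. At an unadjusted p under 0.05, 7 of 38 genes (18.4%) were lower in LERKO liver, beside 4% of all probe sets tested, and 0 of 38 were higher, beside 2.98%. The 7 were Srpr, Sec61a1, Sec61g, Ssr3, Spcs2, Spcs3 and Kdelr2, each at an adjusted p of 0.703. All LERKO arrays lay below all CT arrays in 9 of 38 genes (23.7%), beside 7.13% of all probe sets, and above them in 2 genes (5.26%), beside 5.91%. The log2 fold change was below 0 in 28 genes and above 0 in 10, with a median of −0.07 and a range of −0.37 to 0.15, while 53.5% of all probe sets lay below 0, with a median of −0.01. With 3 mice against 3, an exact permutation test of a single gene cannot go below a p of 0.1. Without LERKO replicate 3 the count of genes lower at an unadjusted p under 0.05 was 4 of 38, beside 3.03% of all probe sets. Without CT replicate 3 it was 6 of 38, beside 7.36%. With both arrays that had genes of other organs (LERKO replicate 2 and CT replicate 3) left out, it was 4 of 38, beside 6.81%. The contrast with all probe sets was thus smaller in these last fits.

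By step, the median log2 fold change was −0.149 in the translocon, −0.135 in signal peptidase and −0.09 in the signal recognition particle and its receptor. It was −0.046 among cargo and retrieval receptors and −0.005 in the COPII coat. The difference between steps was not tested. The order of the translocon and signal peptidase turned round where a signal of 100 was required on all 6 arrays (−0.165 and −0.214). It also did so without CT replicate 3 (−0.145 and −0.199), and with LERKO replicate 2 and CT replicate 3 both left out. Without LERKO replicate 3 both medians were −0.156. Without CT replicate 1, signal peptidase (−0.085) came after the signal recognition particle and its receptor (−0.122). The COPII median changed sign with single arrays left out (−0.025 to 0.015).

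**Figure D1:**
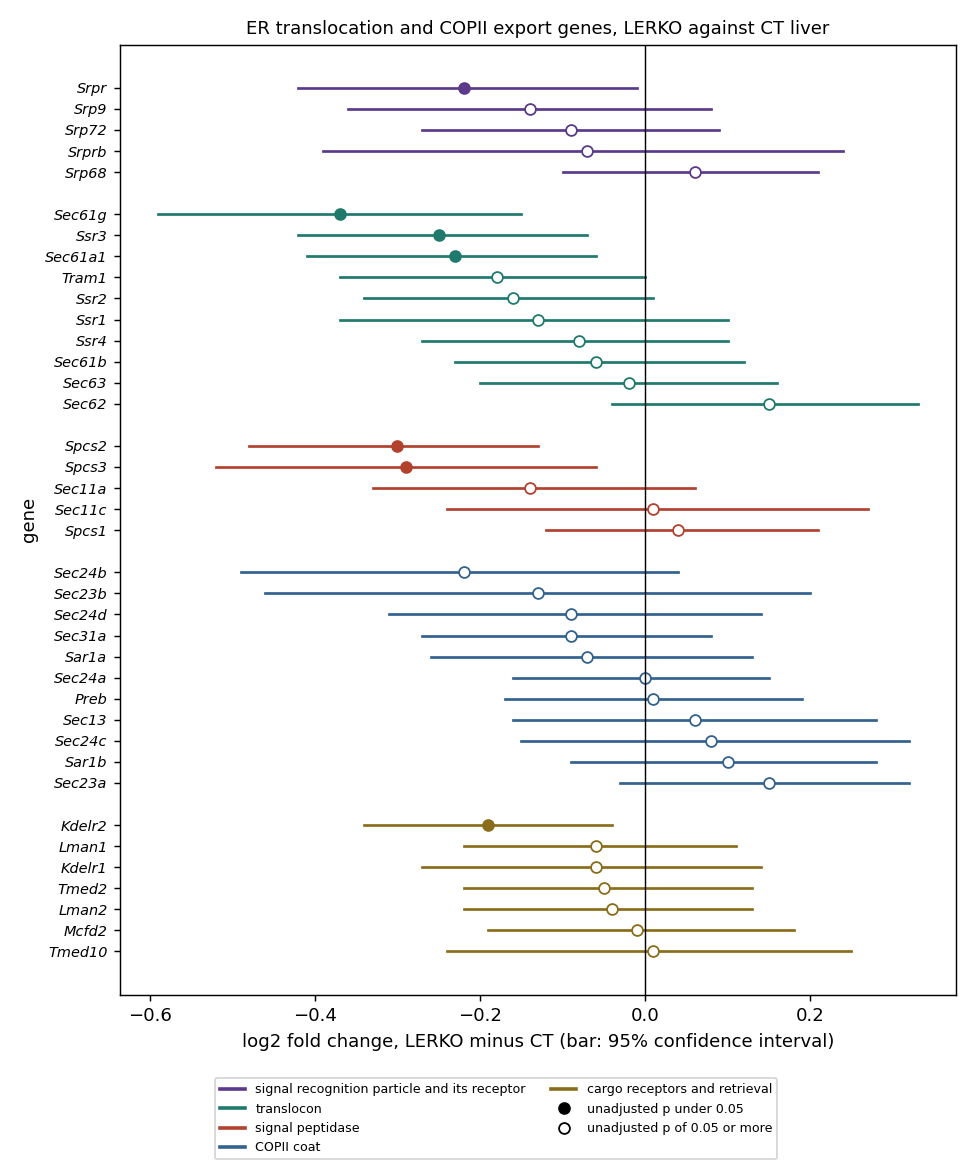
Log2 fold change of the 38 genes tested, LERKO minus CT, with 95% confidence intervals from limma, ordered by step; filled points have an unadjusted p under 0.05. The 7 filled points lie between −0.37 and −0.19, and none belongs to the COPII coat, whose points lie from −0.22 to 0.15.

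**Figure D2:**
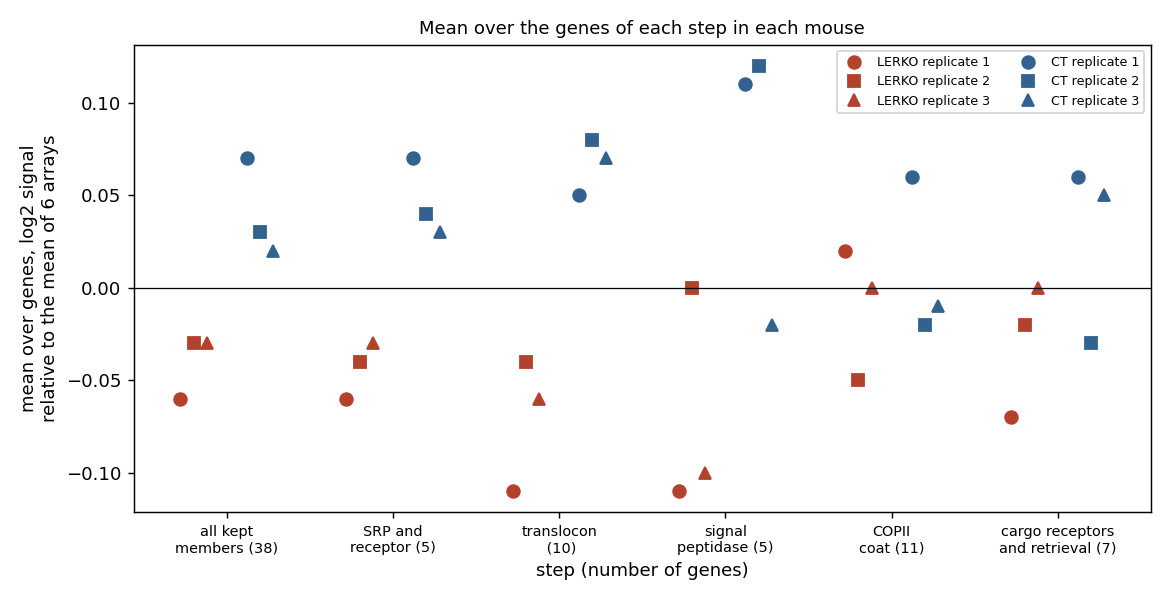
Mean over the genes of each step in each mouse, as log2 signal relative to the mean of the 6 arrays, LERKO in red and CT in blue. Over all 38 genes the LERKO mice lie between −0.06 and −0.03 and the CT mice between 0.02 and 0.07; the groups overlap in signal peptidase, in the COPII coat and among cargo receptors.

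In the signal recognition particle and its receptor, 5 of 7 genes were tested and 1, the receptor subunit Srpr, had an unadjusted p under 0.05. This is 20% of the 5, beside 4% of all probe sets lower at that level. Srpr, the GTPase at which the particle docks, had log2 signals of 9.25, 9.20 and 9.03 in LERKO liver, against 9.33, 9.34 and 9.45 in CT liver. Every LERKO value was under every CT value, and the nearest were 0.08 apart. The log2 fold change was −0.22 (SE 0.08, unadjusted p = 0.0398, adjusted p = 0.703 in limma), a level of 86.1% of CT with a 95% confidence interval of 74.8 to 99.1%. Its partner Srprb, which anchors the receptor in the membrane, had a log2 fold change of −0.07 with a confidence interval of −0.39 to 0.24. Srp68 and Srp72, which bind each other on the particle's RNA, had values of 0.06 and −0.09, and both had overlapping groups. Srp9, of the domain that slows translation, had −0.14 in the probe set used and 0.03 in its dimmer one, so its probe sets differ in direction. Srp14, its partner, and Srp19, needed for assembly of the particle, lay below a signal of 100 on all 6 arrays and were not tested.

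In the translocon, 9 of the 10 genes tested had log2 fold changes below 0 (90%, beside 53.5% of all probe sets). An unadjusted p under 0.05 was found in 3, each lower in LERKO (30%, beside 4%). In 5 of the 10, every LERKO value was under every CT value (50%, beside 7.13%). Sec61g, the small gamma subunit of the Sec61 channel, had log2 signals of 8.45, 8.50 and 8.57 in LERKO liver, against 8.89, 9.02 and 8.73 in CT liver. The groups did not overlap, with a gap of 0.16 between the highest LERKO and the lowest CT mouse. The log2 fold change of −0.37 (SE 0.09) was the lowest of the set, at 77.3% of the CT level with a 95% confidence interval of 66.4 to 89.9% (unadjusted p = 0.00542, adjusted p = 0.703 in limma). The array has 4 probe sets for Sec61g, whose log2 fold changes were −0.36 to −0.37 with unadjusted p values of 0.00542 to 0.0178, and the groups did not overlap in any of the 4. The annotation gives all of them the same gene, and whether they detect near-identical copies of it was not tested, so the 4 values are not independent measurements.

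Sec61a1, the alpha subunit that forms the channel itself, had 10.88, 10.92 and 10.84 in LERKO liver, against 11.10, 11.03 and 11.21 in CT liver. The groups did not overlap, and the log2 fold change was −0.23 (SE 0.07, unadjusted p = 0.0174, adjusted p = 0.703), or 85.1% of CT with an interval of 75.3 to 96.2%. Its paralogue Sec61a2 had 5.11, 5.73 and 5.87 in LERKO, against 6.45, 6.37 and 5.45 in CT, below a signal of 100 on every array and with overlapping groups. Sec61b, the beta subunit, reached 100 on 3 arrays only and had a log2 fold change of −0.06 with an interval of −0.23 to 0.12. Of its 3 probe sets, only this 1 reached 100 on any array.

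Ssr3, the gamma subunit of the translocon-associated TRAP complex that helps some chains into the channel, had 9.71, 9.74 and 9.69 in LERKO liver, against 9.96, 9.87 and 10.05 in CT liver. The 3 LERKO mice lay close together and below every CT mouse. Its log2 fold change was −0.25 (SE 0.07, unadjusted p = 0.0128, adjusted p = 0.703), or 84.2% of CT with an interval of 74.5 to 95.1%. The other TRAP subunits Ssr1, Ssr2 and Ssr4 had log2 fold changes of −0.13, −0.16 and −0.08, and of these Ssr2 alone had groups that did not overlap (unadjusted p = 0.0615). Tram1, a membrane protein beside the channel, had −0.18 with groups that did not overlap (unadjusted p = 0.0531). Sec62 and Sec63, which serve chains that enter after translation, had 0.15 and −0.02. The LERKO and CT values of Sec62 touched, with no gap between the groups at 2 decimals.

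Signal peptidase had 5 of 5 genes tested and 2 at an unadjusted p under 0.05, both noncatalytic subunits. Both were lower in LERKO (40% of the 5, beside 4% of all probe sets). Spcs2, which binds the complex to the translocon, had 8.84, 8.83 and 8.69 in LERKO liver, against 9.07, 9.14 and 9.06 in CT liver. The gap of 0.22 between the groups was the widest of the set. The log2 fold change was −0.30 (SE 0.07), at 81.0% of the CT level with a 95% confidence interval of 71.9 to 91.3%, and its unadjusted p of 0.00454 ranked 60 among the 10633 probe sets (adjusted p = 0.703 in limma).

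Spcs3, whose yeast counterpart is required for the activity of the enzyme, had 7.95, 8.16 and 7.91 in LERKO liver, against 8.34, 8.38 and 8.19 in CT liver. LERKO replicate 2 and CT replicate 3, the arrays with genes of other organs, were the nearest values, 0.02 apart. The log2 fold change was −0.29 (SE 0.10, unadjusted p = 0.0207, adjusted p = 0.703), or 81.7% of CT with an interval of 69.6 to 95.9%. The catalytic subunits Sec11a and Sec11c had log2 fold changes of −0.14 and 0.01, the second of them with only 3 arrays at a signal of 100. Spcs1, the small subunit, had 0.04 with an interval of −0.12 to 0.21.

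**Figure D3:**
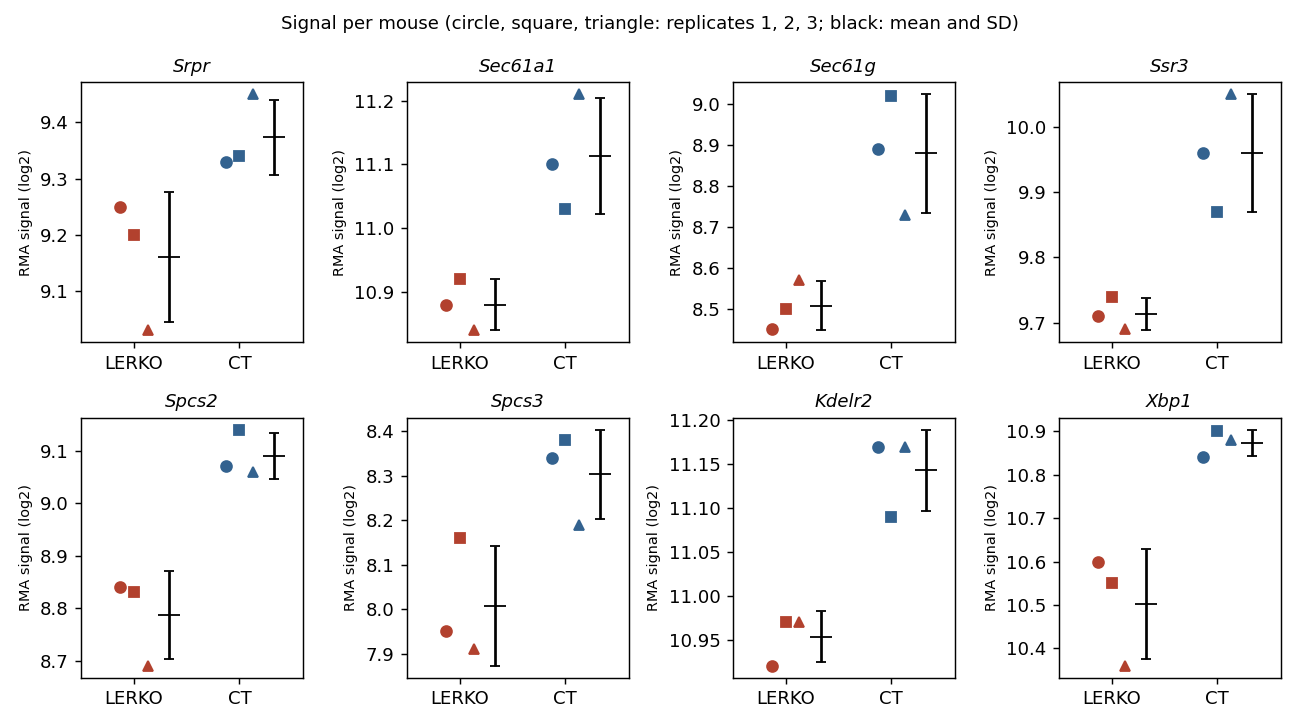
RMA signal (log2) of the 7 genes with an unadjusted p under 0.05, and of Xbp1, with a point for each animal and the group mean ± SD in black (3 LERKO, 3 CT); each panel has its own axis, which does not start at 0. In every panel the LERKO mice lie below the CT mice, from a gap of 0.02 in Spcs3 to 0.24 in Xbp1.

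The COPII coat had 11 of 11 genes tested, 6 below 0 (54.5%, beside 53.5% of all probe sets) and 5 above. None had an unadjusted p under 0.05, beside 4% of all probe sets lower and 2.98% higher at that level. All 95% confidence intervals lay within −0.49 and 0.32. The smallest p belonged to Sec24b, an adaptor that selects cargo, with 7.46, 7.77 and 7.71 in LERKO liver, against 7.88, 8.0 and 7.74 in CT liver. The groups overlapped, and the log2 fold change was −0.22 (SE 0.11, unadjusted p = 0.0869, adjusted p = 0.729). The other Sec24 adaptors, Sec24a, Sec24c and Sec24d, had 0.00, 0.08 and −0.09, also with overlapping groups.

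Sec23a, which activates the GTPase of the coat, had 10.21, 10.08 and 10.17 in LERKO liver, against 10.06, 9.93 and 10.04 in CT liver. It was the only coat gene whose groups did not overlap, by 0.02, and was higher in LERKO by 0.15 (SE 0.07, unadjusted p = 0.089, adjusted p = 0.731). Its paralogue Sec23b had −0.13, with CT replicate 1 at 8.97 and the other 5 mice at 8.44 to 8.62; without that mouse its value was 0.02. Of the GTPases themselves, Sar1a had −0.07 and Sar1b, which in humans is mutated in chylomicron retention disease, had 0.10. Preb, the exchange factor that loads Sar1 with GTP, had 0.01, and the outer coat proteins Sec13 and Sec31a had 0.06 and −0.09. Of the 3 genes with a UPRE core in the promoter window, Sec23a and Sec24d thus had 0.15 and −0.09, and Kdelr3 was not tested.

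Among cargo and retrieval receptors, 7 of 8 genes were tested and 1, Kdelr2, had an unadjusted p under 0.05. This is 14.3% of the 7, beside 4% of all probe sets lower at that level. The KDEL receptors return escaped ER residents such as chaperones from the Golgi. Kdelr2 had 10.92, 10.97 and 10.97 in LERKO liver, against 11.17, 11.09 and 11.17 in CT liver. The groups were 0.12 apart, with a log2 fold change of −0.19 (SE 0.06, unadjusted p = 0.0227, adjusted p = 0.703), or 87.7% of CT with an interval of 78.9 to 97.5%. Kdelr1 had −0.06 with an interval of −0.27 to 0.14, and Kdelr3 lay below 100 on all arrays, at 3.66, 3.83 and 3.74 in LERKO and 4.08, 3.77 and 4.24 in CT.

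The cargo receptors showed smaller values. Lman1 and Mcfd2, which together export coagulation factors V and VIII, had −0.06 and −0.01. Lman2, a lectin of the same family as Lman1, had −0.04, and the cargo receptors Tmed2 and Tmed10 had −0.05 and 0.01. All 5 had overlapping groups, and their 95% confidence intervals lay within −0.24 and 0.25.

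In all 7 genes every LERKO value lay under every CT value, so leaving arrays out could not change the sign of the log2 fold change. With each array left out in turn, Sec61g, Ssr3 and Spcs2 kept an unadjusted p under 0.05 in all 6 fits, while Srpr, Sec61a1, Spcs3 and Kdelr2 did not. The log2 fold change lay between −0.45 and −0.30 for Sec61g, between −0.30 and −0.20 for Ssr3 and between −0.33 and −0.26 for Spcs2. With both LERKO replicate 2 and CT replicate 3 left out, Sec61g had −0.44, Spcs2 −0.34, Spcs3 −0.43 and Ssr3 −0.21. In that fit 4 genes (Sec61g, Spcs2, Spcs3 and Sec24b) were lower at an unadjusted p under 0.05, beside 6.81% of all probe sets.

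**Figure D4:**
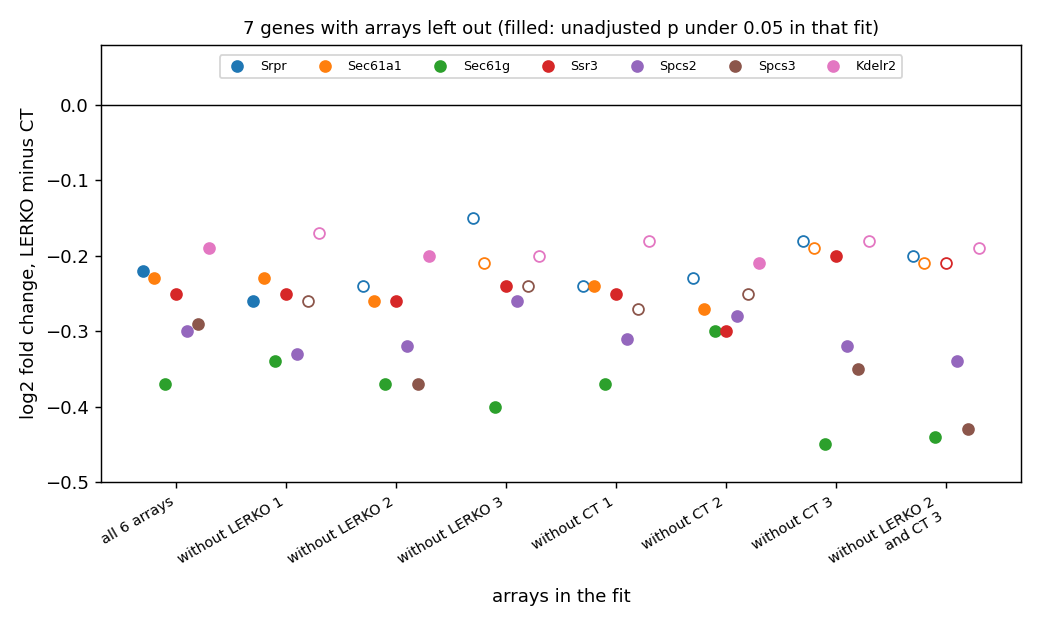
Log2 fold change (LERKO minus CT) of the 7 genes in the fit of all 6 arrays, with each array left out in turn, and with LERKO replicate 2 and CT replicate 3 both left out; filled points have an unadjusted p under 0.05 in that fit. The points lie between −0.45 and −0.15. The groups of these genes do not overlap, so no point could lie above 0. Sec61g and Spcs2 are filled in every fit.

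Other genes of the route were taken from 4 lists of 80 genes in all. Over all probe sets tested, 4% were lower and 2.98% higher at an unadjusted p under 0.05. Of other ER targeting and insertion genes, 14 of 24 were tested, 0 had an unadjusted p under 0.05, and the median log2 fold change was 0.037. Of other genes of ER exit and the compartment between ER and Golgi, 25 of 30 were tested, with a median of −0.025. At an unadjusted p under 0.05, 1 (4%, the same share as over all probe sets) was lower and 2 were higher. These were Bet1, a SNARE of vesicle fusion (−0.28, unadjusted p = 0.0194), Bcap29, an ER membrane protein (0.22, unadjusted p = 0.0207), and Sec16a, the scaffold of ER exit sites (0.19, unadjusted p = 0.0316). Each of these had an adjusted p of 0.703.

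The COPI coat, which carries retrieved proteins back to the ER, and its GTPases had 16 of 17 genes tested, with a median of −0.045. At an unadjusted p under 0.05, 2 were lower (12.5%, beside 4% of all probe sets) and 0 higher (beside 2.98%). Arf4, a GTPase that recruits the coat, had 9.49, 9.52 and 9.51 in LERKO liver, against 9.71, 9.75 and 9.76 in CT liver. Both groups were tight and did not overlap, with a log2 fold change of −0.23 (SE 0.06, unadjusted p = 0.00716, adjusted p = 0.703). Copg1, a subunit of the coat, had −0.21 (unadjusted p = 0.0363, adjusted p = 0.703).

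Of 9 transcription factors of secretory genes, 5 were tested and the median was 0.004. At an unadjusted p under 0.05, 1 was lower (20%, beside 4% of all probe sets). That 1 was Xbp1, with 10.60, 10.55 and 10.36 in LERKO liver, against 10.84, 10.90 and 10.88 in CT liver. The groups did not overlap, and its log2 fold change of −0.37 (SE 0.08, unadjusted p = 0.00342, adjusted p = 0.703) ranked 43 among all probe sets. The array signal does not separate the spliced from the unspliced Xbp1 transcript. The other factors tested were Atf6 (0.02, limma unadjusted p = 0.81), Atf6b (−0.09), Creb3l2 (0.15) and Creb3l3 (0.00), each with overlapping groups. The ER chaperones Hspa5 and Hyou1, which act on chains as they emerge from the translocon, belong to none of these lists. Their log2 fold changes were −0.54 (limma adjusted p = 0.703) and −0.99 (limma adjusted p = 0.149), beside −0.37 for the lowest gene of translocation or export. By p they ranked 18 and 2 among all probe sets, and they do not stand for ER chaperones in general.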

How the data were processed

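RNA was hybridised to 1 array per mouse. The authors computed log2 signals with RMA in the oligo package (version not given in the sources used here), which corrects background, normalizes by quantiles and summarises each of 35556 probe sets; these deposited log2 values were used unchanged. Probe sets below a signal of 100 (log2 6.64) on all 6 arrays were removed, which left 10633, and LERKO was compared with CT in limma (version 3.58.1, R 4.3.3) with Benjamini-Hochberg adjustment at 0.05. Genes were named from the 21218 probe sets that the array's annotation pairs with 1 gene. Values per mouse are given for genes with an unadjusted p under 0.05, for the gene of smallest p in each step and for some paralogues, and for at most 3 genes of each further list. Kdelr3 and Sec61a2 are given as paralogues, and Sec23a was singled out after its values were seen. The genes and lists were chosen with earlier results of these data known. Replicate numbers did not pair the arrays. Quantile normalization makes all values relative to the array as a whole. Other filters, variance models, scalings and left-out arrays were tried.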

Additional observations from a re-analysis of the deposited data

How the results depend on the processing

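The 7 genes named at an unadjusted p under 0.05 had log2 fold changes below 0 in every alternative run, but most runs could not change this sign. Filters, variance models other than array weights, and the replicate block leave the fold change as it is. Array weights moved it slightly (Spcs3 from −0.29 to −0.31). The mean over the probe sets of a gene moved Sec61g from −0.3722 to −0.3673. Weights, that mean and left-out arrays cannot reverse groups that do not overlap. Only the other scalings of the arrays could have changed the sign. No set member passed an adjusted p of 0.05 in any of them. Over all probe sets, 3 passed where a signal of 100 was required on all 6 arrays, 1 with a mean-variance trend, and 0 to 1 with 1 array left out (1 without LERKO replicate 3). The replicate number does not pair the arrays (correlations of deviations −0.157, −0.073 and −0.137). With a replicate block, 4 genes were lower at an unadjusted p under 0.05, in place of 7, beside 3.23% of all probe sets. The count was 4 to 6 with 1 array left out, beside 2.38% (without LERKO replicate 1) to 7.36% (without CT replicate 3) of all probe sets. It was 4 with LERKO replicate 2 and CT replicate 3 both left out, beside 6.81%. With both left out, the median over the set was −0.121, beside −0.028 over all probe sets. With all 6 arrays these were −0.07 and −0.01. By step, the medians with both left out were −0.137 in the signal recognition particle, −0.166 in the translocon and −0.211 in signal peptidase. They were 0.010 in the COPII coat and −0.010 among cargo and retrieval receptors. With 1 array left out, the median ranged from −0.146 (without LERKO replicate 3; −0.144 without CT replicate 3) to −0.078 in the signal recognition particle and from −0.170 to −0.114 (without LERKO replicate 1) in the translocon, from −0.199 (without CT replicate 3) to −0.085 (without CT replicate 1) in signal peptidase, from −0.025 to 0.015 (without CT replicate 1) in the COPII coat and from −0.082 (without CT replicate 2) to −0.017 (without CT replicate 3; −0.026 without LERKO replicate 1) among cargo and retrieval receptors. The signal peptidase median was −0.214 with 100 required on all 6 arrays, and the COPII median 0.001 with arrays centred on their median and 0.006 with cyclic loess. With array weights 1 gene was higher at an unadjusted p under 0.05, and the share of all probe sets higher in that run was not computed. There Sec11c (−0.0264) and Tmed10 (−0.0241) turned below 0. Sec24a and Mcfd2 turned above 0 with arrays centred on their median (6e-04 and 3e-04) and with cyclic loess (0.0058 and 0.0069). With both arrays left out, Sec11c (−0.1394), Sec24a (0.0098) and Tmed2 (0.0053) changed sign. With 1 array left out, so did Preb (−0.0268 to 0.053), Mcfd2 (−0.0513 to 0.0338), Sec63 (−0.0551 to 0.0163), Sec11c (−0.0765 to 0.0811), Sec24a (−0.0252 to 0.015), Tmed10 (−0.0877 to 0.065), Srprb (−0.1461 to 0.053), Sec23b (−0.2475 to 0.0193) and Sec24d (−0.1322 to 0.0057). The cause of these shifts was not tested. The 3 arrays per group limit the precision.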
